A study of Macaca mulatta and Mus musculus with 5 samples.

Results

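RAG1 and RAG2, the genes of the V(D)J recombinase, were followed cell by cell in macaque meninges and spleen and in mouse meninges. The members were taken by symbol, RAG1 and RAG2 in the macaque tables and Rag1 and Rag2 in the mouse table, which makes 4 of 45966 gene rows counted over both species. The measurement was 10x 3′-end single-cell RNA-seq, which counts unique molecular identifiers (UMIs), one for each captured transcript. The macaque meninges (2 channels) and macaque spleen (2 channels) came from female Chinese rhesus macaques of 4 to 8 years, and 8000 sorted cells were loaded on each channel. The mouse meninges came from male C57BL/6 mice of 2, 21 and 48 days, whose hashtag-labelled cells were pooled into 1 library, loaded at 30000 cells. No agent or allele was given for any group. Whether the channels of a tissue hold different animals is not labelled, so p-values cannot be taken to measure spread between animals. The spread between channels may be technical. With 2 channels, edgeR p-values and SEs draw largely on a spread estimated over many genes together. They can be smaller than a gene's own difference between channels would give. The mouse library has no replicate, its cells cannot be assigned to an age here, and it received no test.

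RAG1 and RAG2 act as a complex that cuts DNA at the recombination signal sequences beside the V, D and J segments of antigen receptor genes. RAG1 holds the catalytic site, and RAG2 is its cofactor, which also binds a histone mark of active promoters. In B-cell development both genes are known to be used in pro-B cells, which join heavy chain segments, and again in small pre-B cells, which join light chain segments, with a phase of dividing large pre-B cells between them. RAG2 protein, in contrast with its RNA, is known to be degraded when cells enter S phase. The 4 genes used here to place cells along that path are DNTT (terminal transferase, which adds bases at heavy chain joints), VPREB1 (a surrogate light chain gene), MKI67 (a gene of dividing cells) and MS4A1 (CD20, gained as B cells mature).

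On mouse chromosome 2 (mm10, GENCODE M21) the pair lies tail to tail. Rag2 occupies chr2:101624718-101632529 on the plus strand, with 3 exons, and Rag1 chr2:101638282-101649501 on the minus strand, with 2 exons, and 5752 bases separate their 3′ ends. Each gene has a single coding exon, of 1581 coding bases in Rag2 (chr2:101629347-101630927) and 3120 in Rag1 (chr2:101641676-101644795), and the long 3′ untranslated region that a 3′-end library reads lies in that same exon. The annotated gene B230118H07Rik runs across both on the minus strand. It shares 80 exonic bases with Rag1, none in the last Rag1 exon, and 208 with Rag2 on the opposite strand, so a small part of the mouse counts cannot be assigned with certainty. In macaque the order along the chromosome was IFTAP, RAG2, RAG1, TRAF6, PRR5L and COMMD9, and all 6 genes were listed in the meningeal tables.

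The mouse table held 13947 cell barcodes and 128091376 UMIs. The macaque meningeal channels held 4073 and 4313 barcodes at medians of 4096 and 4034 UMIs. Spleen gave 5840 and 6786 barcodes at medians of 2397 and 2665.5 UMIs. After filters on detected genes, mitochondrial UMIs and doublets, 13267 mouse cells, 4029 and 4269 meningeal cells and 5839 and 6783 spleen cells were kept. Libraries shared only 4 to 28 barcodes with each other, and the counts of the 2 channels of a tissue differed by more than sampling noise (chi-square per degree of freedom 5.38 in meninges and 8.70 in spleen). The labels write a dash after CD45 in the sort, and PTPRC, which encodes CD45, had a UMI in 82.1 to 87.9% of kept cells of every library. CD3E, a T-cell gene named as sorted out in macaque, had a UMI in 23.9 and 23.4% of meningeal cells, against 3.22 and 3.79% in spleen. A B-lineage gate, set on raw UMIs of CD79B, PAX5 and other B-cell genes without any member or stage gene, held 10070 mouse, 1832 and 1922 meningeal and 4427 and 5172 spleen cells.

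RAG1 and RAG2 were found in both macaque meningeal channels and in neither spleen channel. RAG1 had 388 and 364 UMIs in the meningeal channels, or 20.8 and 18.7 CPM (UMIs of the gene per 1000000 UMIs of all cells summed). RAG2 had 163 and 120 UMIs, or 8.73 and 6.17 CPM. In the spleen tables neither gene was listed. The lowest number of cells for any listed macaque gene was 3, so an unlisted gene could still have been present in up to 2 barcodes, or 0.0342 and 0.0295% of the spleen barcodes. Both genes were thus listed in the meninges alone, although the spleen held more B-lineage gate cells than the meninges. In the edgeR comparison of the tissues, 58.2% of 12441 genes were called, 31.1% higher and 27.1% lower in meninges. Both members entered it through the meningeal channels alone and so had to differ, and their p-values are not given. No fold is given, since the spleen sums are 0. In such sums, fewer cells of a type and less RNA per cell cannot be told apart. Cell numbers of the clusters with most RAG are given below for both tissues, and their part in the difference was not tested.

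RAG1 had a UMI in 181 of 4029 and 168 of 4269 kept meningeal cells (4.49 and 3.94%), RAG2 in 117 and 90 (2.90 and 2.11%), and both genes in 55 and 50. In the mouse library Rag1 was found in 5033 of 13267 kept cells (37.9%, exact 95% interval 37.1 to 38.8), Rag2 in 1898 (14.3%, 13.7 to 14.9) and both in 1403. Such shares depend on depth, with a median of 6394 UMIs in kept mouse cells against 4078 and 4024 in kept meningeal cells of macaque. With each cell thinned to 1000 UMIs, which left out 18 mouse and 365 and 425 macaque meningeal cells under that depth, Rag1 was found in 15.2% of mouse cells. RAG1 was found in 2.45% ± 0.16 of cells in macaque meninges and in 0% in spleen (SD, n = 2 each). RAG2 averaged 0.965% ± 0.334 in meninges and 0% in spleen, and was found in 2.50% of mouse cells. An exact two-sided permutation test over 2 channels against 2 gave p = 0.33 for each, the smallest p this design allows. Intervals cover counting error only.

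The signal lay in the B-lineage gate. In macaque 172 of the 181 and 167 of the 168 cells with RAG1 were in the gate, where RAG1 reached 39.2 and 37.1 CPM and RAG2 16.6 and 12.3 CPM. In mouse 4882 of the 5033 cells with Rag1 were in the gate, at 197 CPM, with Rag2 at 33.9 CPM. Clusters named NK-like or T-like, which should lack the genes, gave the background. There RAG1 had a UMI in 2 of 1340 and 0 of 1397 macaque cells (0.149% and, for the count of 0, at most 0.264%), and RAG2 in none. In mouse these cells had Rag1 in 5.0% and Rag2 in 0.729% at a median of 8570 UMIs, or 6.12 and 0.752 CPM. The mouse stage genes had a background of the same kind, with Dntt in 4.32%, Vpreb1 in 10.6%, Mki67 in 13.8% and Ms4a1 in 7.50% of NK-like and T-like cells. In macaque DNTT was found in 0.0746 and 0.215% and VPREB1 in 0.224 and 0% of them, whereas MKI67 (7.01 and 6.94%) and MS4A1 (7.69 and 7.23%) were more frequent.

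The level per cell was low. In macaque gate cells with RAG1, 86 of 172 and 76 of 167 held a single UMI, and the highest count was 11 and 9. RAG2 was a single UMI in 87 of 115 and 66 of 90 positive cells, with a maximum of 6 and 4. In mouse 1355 of 4882 Rag1-positive gate cells held 1 UMI, 1684 held 2 to 3, 1622 held 4 to 9 and 221 held 10 or more, up to 31. Rag2 was a single UMI in 1212 of 1855. RAG1 thus gave the greater share of RAG UMIs in the gate of every library, 85.3% in mouse and 70.3 and 75.2% in macaque.

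Cells were clustered without RAG1 and RAG2 among the genes used, and clusters serve here as a description. In macaque meninges the highest level was in cluster 7, called pre-B-like from its markers, whose leading genes included ARPP21, AKAP12 and APOD. It held 462 cells in each meningeal channel and 0 in each spleen channel. In meninges RAG1 was at 235 and 220 CPM and RAG2 at 77.5 and 64.6 CPM. Cluster 7 lacked DNTT (0% of cells), had VPREB1 in 41.6% and MKI67 in 2.38%, and held 343 of the 388 and 314 of the 364 RAG1 UMIs. Cluster 15, with replication histone genes and TOP2A in the lead, MKI67 in all cells and VPREB1 in 73.0%, had the opposite order of the pair: RAG1 9.37 and 12.8 CPM, RAG2 48.0 and 29.3 CPM. This order rested on 8 and 7 RAG1 UMIs and 41 and 16 RAG2 UMIs in 60 and 40 meningeal cells. In spleen cluster 15 held 0 cells in each channel. Cluster 13, led by SFRP2 and PTGDS, genes of fibroblast-type cells, together with DNTT, had RAG1 at 34.9 and 56.7 CPM and RAG2 at 10.6 and 13.5 CPM in 54 and 66 cells, of which 34.8% were in the gate (all channels together). It stayed unnamed. Among the macaque clusters with at least 50 meningeal cells outside these 3, RAG1 was 0 to 5.58 CPM and RAG2 0 to 0.741 CPM per channel, and cells of the plasma-like and mature B-like clusters had no UMI of either gene.

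**Figure D1:**
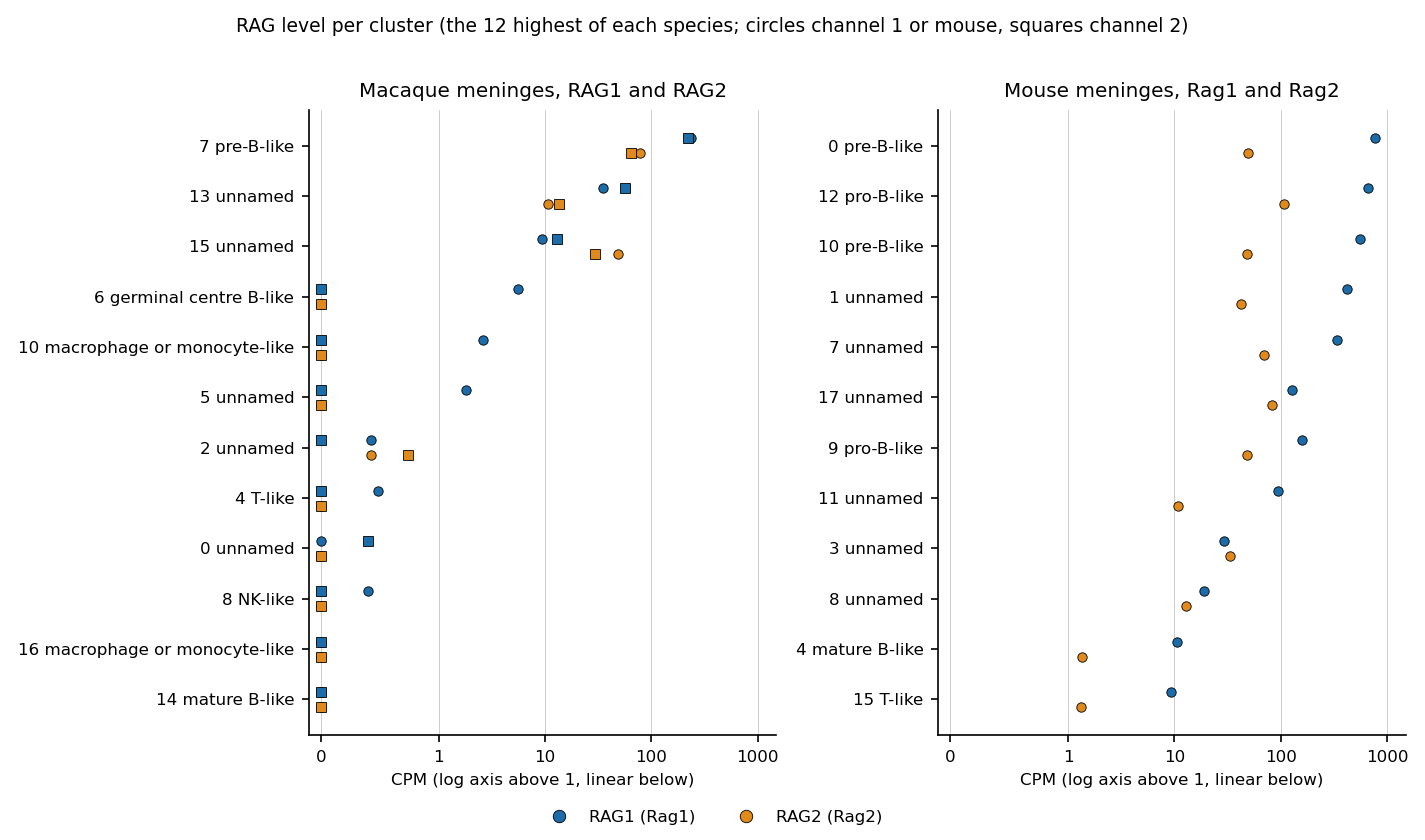
Level of RAG1 (blue) and RAG2 (orange) in CPM per cluster, on an axis that is logarithmic above 1, for the 12 clusters with the highest summed level in macaque meninges (left; circles channel 1, squares channel 2, which can cover circles at 0) and mouse meninges (right). RAG1 lay above RAG2 in macaque cluster 7 (235 and 220 against 77.5 and 64.6 CPM) and below it in cluster 15 (9.37 and 12.8 against 48.0 and 29.3 CPM).

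In the mouse library Rag1 was highest in pre-B-like cluster 0, at 769 CPM (exact 95% interval 747 to 791), followed by pro-B-like cluster 12 at 658 CPM (636 to 681), and these intervals did not overlap. The intervals here cover counting error only, not the spread between cells or mice, and are no test between clusters. Rag2 was in the other order, at 107 CPM (97.9 to 116) in cluster 12 and 49.6 CPM (44.2 to 55.5) in cluster 0. Cluster 12 had Dntt in 89.1% and Vpreb1 in all of its cells with Mki67 in 17%, while its dividing counterpart, pro-B-like cluster 9 with Mki67 in 99.3%, had Rag1 at 158 CPM and Rag2 at 48.2 CPM. Clusters led by cell cycle genes were unnamed: cluster 17, led by the mitotic genes Ube2c, Cenpf and Cdc20, had Rag1 at 128 and Rag2 at 81.9 CPM. Cluster 3, led by replication histone genes and Rrm2, had Rag1 at 29.0 CPM (25.8 to 32.4) and Rag2 at 33.3 CPM (29.9 to 36.9), levels whose intervals overlap. In mature B-like clusters 4 and 5 Rag1 was 10.5 and 4.63 CPM and Rag2 1.35 and 1.11 CPM. The exact 95% interval of Rag1 in cluster 4 (8.43 to 13.01 CPM) lay above that of NK-like and T-like cells (5.05 to 7.35 CPM), and that in cluster 5 (2.999 to 6.84 CPM) overlapped it. Cluster 11, with Ms4a1 in 73.1% of cells and markers of both pre-B and mature B cells, lay between, at 93.5 CPM for Rag1 and 10.8 CPM for Rag2.

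Binning by DNTT separated few macaque cells. In the meningeal channels 18 and 30 gate cells had a DNTT UMI. They held 23 and 42 RAG1 UMIs and 7 and 10 RAG2 UMIs, the same totals as cluster 13, which had DNTT in 35.5% of its cells. The overlap of this bin with cluster 13 was not counted, so the 2 are not separate results. The RAG1 level of the gate cells with DNTT was 154 and 150 CPM, against 37.4 and 33.8 CPM in those without. RAG1 rose by 1.98 ± 0.28 on the log2 scale (SE, edgeR adjusted p = 4.3e-11, where 16.5% of genes were called, 7.21% higher and 9.25% lower). RAG2 was 47.0 and 35.8 CPM with DNTT and 16.1 and 11.6 CPM without, a log2 difference of 1.46 ± 0.55 that did not pass (edgeR adjusted p = 0.0501). Among gate cells without MS4A1, an alternative chosen after seeing the data, RAG1 differed by 0.34 ± 0.25 and RAG2 by -0.27 ± 0.45 with DNTT (edgeR adjusted p = 0.46 and 0.79; 14.5% of genes called, 7.32% higher and 7.14% lower). Thinning also ended the RAG1 call (0.019 ± 0.85, edgeR adjusted p = 1.0), where only 1 and 4 DNTT-positive cells still held a RAG1 UMI. In mouse Dntt was found in 1209 gate cells, and Rag1 was 323 CPM in these and 174 CPM in gate cells without Dntt. By dose, Rag1 was 174, 168, 216 and 432 CPM at 0, 1, 2 to 3 and 4 or more Dntt UMIs, and Rag2 29.0, 31.0, 32.3 and 81.5 CPM. The mouse difference thus lay in cells with 4 or more Dntt UMIs, while those with 1 UMI matched the cells with 0.

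VPREB1 marked 299 and 273 macaque gate cells. RAG1 was 104 and 120 CPM in these and 23.9 and 21.3 CPM in gate cells without VPREB1, and RAG2 was 54.0 and 44.8 CPM with and 7.74 and 6.09 CPM without. RAG1 rose by 2.10 ± 0.13 and RAG2 by 2.63 ± 0.20 on the log2 scale (edgeR adjusted p = 6.7e-54 and 3.3e-36), with 45.2% of all genes called, 21.9% higher and 23.3% lower. Within gate cells without MS4A1 these differences ended, at -0.31 ± 0.16 for RAG1 and 0.18 ± 0.21 for RAG2 (edgeR adjusted p = 0.21 and 0.62; 21.1% of genes called, 9.32% higher and 11.8% lower). There RAG1 was 131 and 146 CPM with VPREB1 and 154 and 134 CPM without, in opposite orders in the 2 channels. In mouse Rag1 was 176 CPM with Vpreb1 and 212 CPM without, and Rag2 41.9 CPM with and 28.6 CPM without. Vpreb1 has a near-identical copy, Vpreb2, so mouse Vpreb1 counts are uncertain.

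MKI67 divided the pair. In macaque 127 and 118 gate cells had an MKI67 UMI. RAG1 was 16.9 and 29.8 CPM in these and 43.5 and 38.3 CPM in gate cells without, and it fell by 0.89 ± 0.22 on the log2 scale (edgeR adjusted p = 0.0051). RAG2 was 35.2 and 19.4 CPM with MKI67 and 13 and 11.1 CPM without, and it rose by 1.10 ± 0.24 (edgeR adjusted p = 0.0018), in a comparison that called 42.1% of all genes, 21.8% higher and 20.3% lower. By channel the RAG1 difference was -1.36 in channel 1 and -0.36 in channel 2, and that of RAG2 1.43 and 0.80. DESeq2 gave the same sizes without passing (-0.89 and 1.08, adjusted p = 0.11 and 0.085). Over all kept meningeal cells the RAG1 difference was -0.45 ± 0.24 (edgeR adjusted p = 0.16), where that of RAG2 was 1.54. In sums thinned to 1000 UMIs the RAG2 difference was 0.044 ± 0.65 (edgeR adjusted p = 0.98), while that of RAG1 was -2.28 ± 0.57 (edgeR adjusted p = 0.0042). Cells with MKI67 were deeper (medians of 10375 and 9998 against 4363 and 4415.5 UMIs).

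Most gate cells had MS4A1 (1355 of 1832 and 1477 of 1922), so the split was repeated within gate cells without MS4A1, again as an alternative added after seeing the data. RAG1 was 23.5 and 34.8 CPM in these cells with MKI67 and 208 and 209 CPM in those without, and it fell by 2.79 ± 0.20 on the log2 scale (edgeR adjusted p = 1.6e-06), with 36.8% of genes called, 20.4% higher and 16.4% lower. RAG2 was 53.6 and 26.9 CPM with MKI67 and 61.0 and 62.0 CPM without, a difference of -0.58 ± 0.26 that did not pass (edgeR adjusted p = 0.098). In mouse gate cells without Ms4a1, Rag1 was 64.9 CPM with 4 or more Mki67 UMIs, against 469 CPM with none, and Rag2 was 40.0 CPM, against 53.0 CPM. Over the whole mouse gate Rag1 was 86.7 CPM with at least 1 Mki67 UMI, against 292 CPM with none, and Rag2 was 36.5 CPM, against 31.7 CPM, so the order of Rag2 differed between these populations. With rising Mki67 in the whole gate (0, 1, 2 to 3, 4 or more UMIs) mouse Rag1 was 292, 237, 185 and 59.2 CPM, lower at each step, while Rag2 was 31.7, 40.5, 40.5 and 35.7 CPM.

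Both members fell with MS4A1 in macaque. RAG1 was 3.79 and 5.99 CPM in macaque gate cells with MS4A1 and 141 and 141 CPM in those without, and RAG2 was 2.11 and 1.46 CPM with and 58.3 and 48.2 CPM without. RAG1 fell by 4.69 ± 0.16 and RAG2 by 4.74 ± 0.21 on the log2 scale (edgeR adjusted p = 3.1e-08 and 1.6e-07), where 45.1% of all genes were called, 23.3% higher and 21.8% lower. Neither difference lost its call under any alternative with a test, and the value of RAG1 ranged between -2.92 over all kept cells and -6.26 at 2 or more MS4A1 UMIs. By dose, RAG1 was 141, 64.7, 12.1 and 0.920 CPM in channel 1 and 141, 107, 9.29 and 1.33 CPM in channel 2 at 0, 1, 2 to 3 and 4 or more MS4A1 UMIs. At 4 or more, 3 of 1163 and 5 of 1238 cells held a RAG1 UMI. Mouse Rag1 followed the same order with a shallower slope, 262, 191, 126 and 38.3 CPM, and Rag2 46.8, 28.2, 11.9 and 5.63 CPM. At 4 or more Ms4a1 UMIs 11.1% of mouse cells still held Rag1, above the 5.0% of NK-like and T-like cells, at medians of 5654 and 8570 UMIs. After thinning the shares were 3.05% with 4 or more Ms4a1 UMIs and 0.886% in NK-like and T-like cells.

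**Figure D2:**
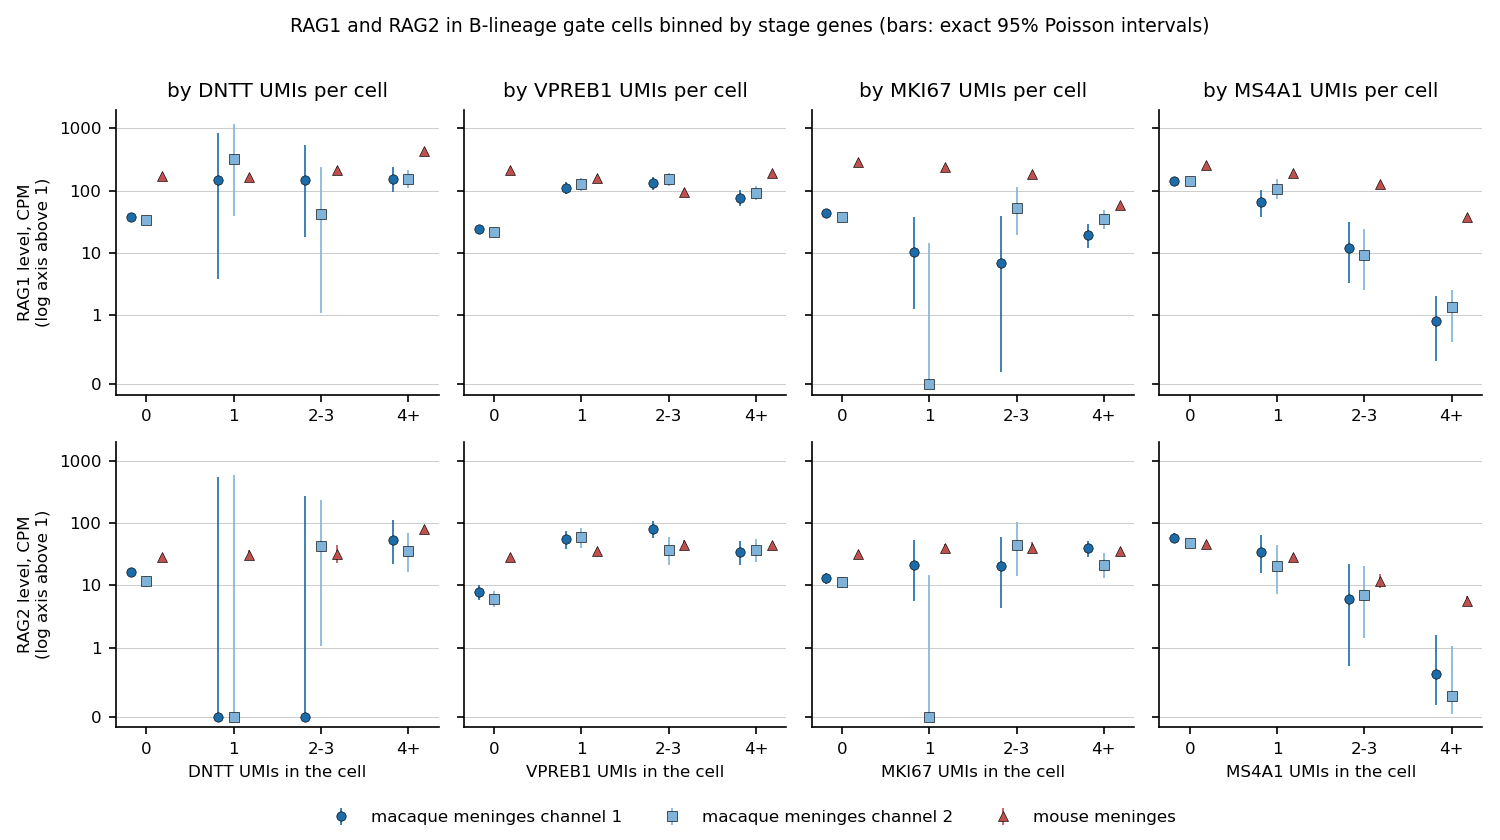
Level of RAG1 (top) and RAG2 (bottom) in CPM, on an axis that is logarithmic above 1, in B-lineage gate cells binned by their raw UMIs of DNTT, VPREB1, MKI67 and MS4A1; points are libraries and bars exact 95% Poisson intervals, which cover counting error only. RAG1 drops with MS4A1 in all 3 libraries (to 0.920, 1.33 and 38.3 CPM at 4 or more UMIs), and the intermediate DNTT and MKI67 bins of macaque rest on few cells.

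The share of RAG UMIs that came from RAG1 summarises how the pair shifted, a measure taken up after the values were seen and given without a test. In macaque gate cells it was 76.7 and 80.8% in the bin with DNTT, 74.8 and 77.9% in cells with VPREB1 but neither DNTT nor MKI67, and 78.0 and 76.9% in cells with none of the 4 genes. In cells with VPREB1 and MKI67 but no DNTT it was 22.0% (exact 95% interval 11.5 to 36.0) and 20% (6.83 to 40.7), on 50 and 25 RAG UMIs. That interval lay below those of the 3 bins named before it in both channels, and the bin with MKI67 alone was not compared here. Among gate cells without MS4A1 the share was 30% and 56.8% with 4 or more MKI67 UMIs and 77.4 and 77.2% with none, so the channels differed in size there. In mouse the same bins gave 84.4%, 88.7%, 91.4% and, with Vpreb1 and Mki67, 57.8% (55.0 to 60.6). Among mouse gate cells with 4 or more Dntt UMIs, the Rag1 share was 77.1% with 4 or more Mki67 UMIs and 86.2% with none. These bins are cut differently from those above, so the sizes are not compared. Level moved more than share there, with Rag1 at 179 and 643 CPM and Rag2 at 53.2 and 103 CPM in the same order.

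**Figure D3:**
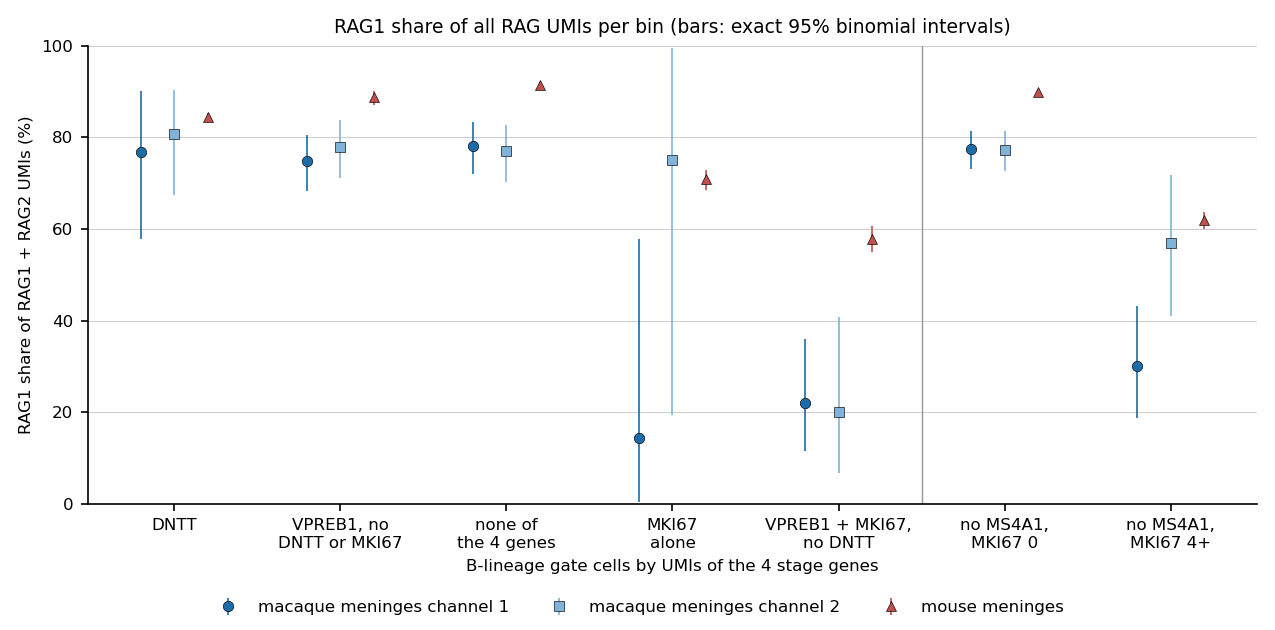
Share of RAG1 + RAG2 UMIs that belong to RAG1, in percent, per bin of B-lineage gate cells; the 5 bins left of the line exclude each other, and the pair right of it splits gate cells without MS4A1 by MKI67. Points are libraries and bars exact 95% binomial intervals of counting error. In cells with VPREB1 and MKI67 the share was 22.0 and 20% in macaque and 57.8% in mouse, below the 74.8 to 91.4% of the non-dividing bins with VPREB1 or with none of the 4 genes.

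Over the whole gate, RAG2 was found more often in cells that also held RAG1. In the macaque gate 54 of 172 and 50 of 167 cells with RAG1 had RAG2 (31.4 and 29.9%), against 61 of 1660 and 40 of 1755 cells without RAG1 (3.67 and 2.28%), although the RAG1-positive cells were shallower (medians 2806.5 and 2723 against 4613 and 4636 UMIs). Within gate cells without MS4A1 the shares were 31.4 and 31.1% with RAG1 and 16.4 and 11.8% without. Inside cluster 7 alone they were 29.9 and 29.1% with RAG1 and 14.4 and 9.35% without, and after thinning 20.2 and 9.41% with and 6.15 and 4.70% without, with overlapping intervals in channel 2. Thinned values rest on few cells: over all kept cells 18 and 9 held both genes after thinning, and 10 and 11 with another random seed. In mouse Rag2 was found in 28.7% of gate cells with Rag1 and 8.75% of those without. After thinning the gate shares were 5.76 and 2.65%. Among mouse gate cells without Ms4a1 the thinned shares were 6.32% (5.20 to 7.60) with and 4.68% (4.05 to 5.37) without Rag1, with overlapping intervals. In mouse cluster 17 the thinned shares were 3.28% with and 6.65% without Rag1, in the other order, and their intervals overlap. Within pro-B-like cluster 12 Rag2 was in 53.2% of cells with and 13.6% of cells without Rag1. After thinning these were 12.4% (8.72 to 16.8) and 7.46% (4.73 to 11.1), with overlapping intervals. Within the other pro-B-like cluster, 9, the unthinned shares were 57.5 and 54.5%, and their intervals also overlap. Within pre-B-like cluster 0 the shares were 17.8% (214 of 1205 cells) and 17% (27 of 159), whose intervals overlap. In cluster 0 Rag2 was 45.1, 44.8 and 55.8 CPM at 1, 2 to 3 and 4 or more Rag1 UMIs, and in cluster 12 it was 91.4, 98.1 and 122 CPM.

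**Figure D4:**
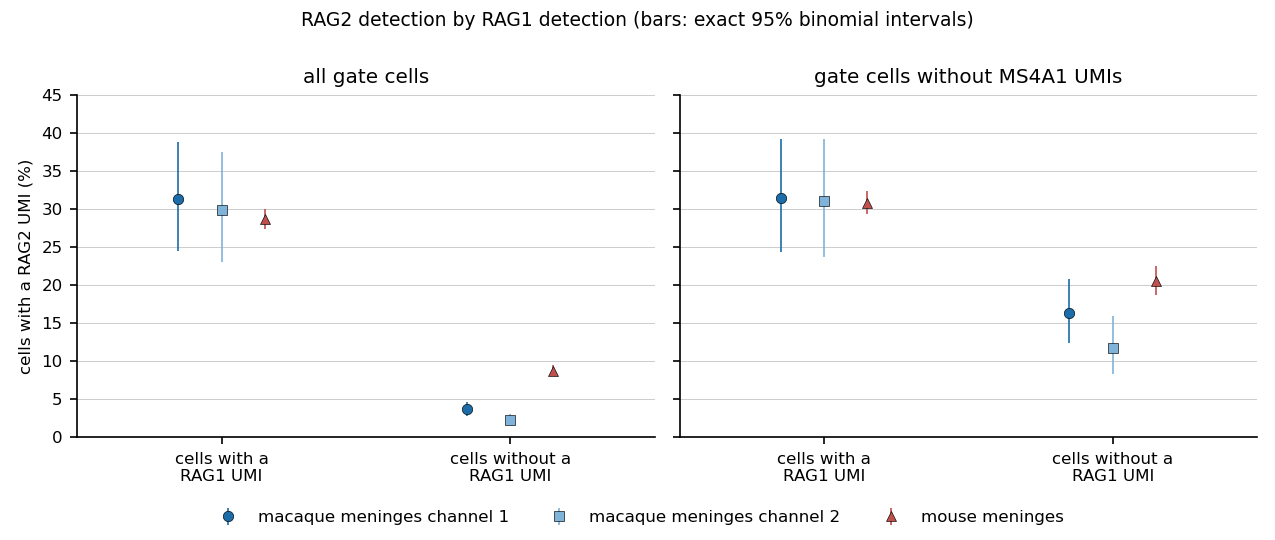
Share of cells with a RAG2 UMI among cells with and then without a RAG1 UMI, in percent, in all B-lineage gate cells (left) and gate cells without MS4A1 (right); points are libraries and bars exact 95% binomial intervals of counting error. RAG2 was in 28.7 to 31.4% of gate cells with RAG1 and in 2.28 to 8.75% of those without. Without MS4A1 the shares without RAG1 were 11.8 to 20.6%. All shares drawn are unthinned.

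To describe the cells that carry the recombinase, macaque gate cells with a RAG1 or RAG2 UMI (233 and 207) were set against gate cells without (1599 and 1715). Members of the pair define this split and are not read from it. Across 10180 genes 1761 rose and 2121 fell (38.1% called by edgeR, 17.3 and 20.8%). Restricted to gate cells without MS4A1, 499 rose and 806 fell of 7762 (16.8%, 6.43 and 10.4%), of which 976 were called in the same direction in both comparisons (25.1% of the first set and 74.8% of the second). The summed level of the listed T, NK and myeloid marker genes was 102 and 96.9 CPM with RAG and 150 and 155 CPM without, with 4 and 5 of 17 markers at 0 with RAG and 0 and 2 without, and the part of other cells in the result was not tested. Among genes of at least 5 mean log2 CPM DNTT had the largest rise, to 116 and 335 CPM with RAG, against 8.40 and 13.3 CPM without (log2 4.06 ± 0.16, edgeR adjusted p = 2.9e-42). That rise came from few cells: few gate cells held a DNTT UMI, and cluster 7, with most of the RAG1 UMIs, had DNTT in 0% of its cells. DNTT was followed by APOD, a lipocalin, at 1163 and 1171 CPM against 62.4 and 71.6. Then came GNG11, a G-protein subunit and a leading gene of the mixed cluster 13, and ARPP21, at 1998 and 1811 CPM against 210 and 185. Further down came MYB, a transcription factor of progenitors, RASSF4, AKAP12 (3197 and 3249 CPM against 395 and 389), VPREB1, DEPP1, ITGA6 (integrin alpha 6), ASPM and RPRML, with log2 differences of 2.56 to 2.95.

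Among the 12 largest falls, JCHAIN, which joins IgM and IgA chains, was 29.7 and 23.9 CPM with RAG and 1602 and 2118 CPM without (log2 -6.35 ± 0.12, edgeR adjusted p = 1.9e-69). GPR183, which guides B cells in follicles, was 13.8 and 11.4 CPM with RAG, against 613 and 724. The co-stimulatory gene CD86 had no UMI and 1.14 CPM with RAG, against 101 and 119 CPM without. The others, IGHE, EDNRB, SOCS3, EGR2, PLBD1, GPR65, LMNA, FCRL5 and ACP5, were at most 6.92 CPM with RAG in either channel and at least 34.8 CPM without. With MS4A1-positive cells removed, DNTT still led the rises (log2 2.03 ± 0.14), joined by IGFBP1, IGFBP7, ADGRL2, PRSS55, CEP250, RETREG1 and MDM2, the ubiquitin ligase of p53, at 356 and 434 CPM against 120 and 137. PRDM1, a regulator of plasma cells, and SLAMF7 then headed the falls, with no UMI in cells with RAG and 52.5 to 74.5 CPM in cells without. In that comparison the cells without RAG had JCHAIN at 7262 and 9629 CPM. Over all macaque channels, plasma-like cluster 3 had 51.3% of its cells in the gate and MS4A1 in 23.7%. The part of such cells in these falls was not tested.

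In the mouse gate, split the same way (5336 cells with and 4734 without a Rag UMI), Dntt was 292 CPM with Rag and 27.4 CPM without. Arpp21 was 49.3 CPM with and 5.33 without, Vpreb1 756 and 205, Akap12 408 and 169, and Myb 548 and 278. All 5 were higher with Rag. Of the 12 largest macaque rises 11 had a mouse row and 8 of these were higher with Rag in mouse, and all 12 falls were lower. Some of these directions rest on almost no mouse UMIs. Among the falls, Ighe was 0 CPM with and 0.0239 CPM without Rag, and Ednrb 0.0891 and 0.0957 CPM. Among the rises, Rprml, which went the other way, was 0.0223 and 0.0239 CPM. The share of all mouse genes lower with Rag was not counted. Without MS4A1 7 of 10 rises and 4 of 10 falls had the macaque direction. Among the falls that did not, Prdm1 was 11.1 CPM with Rag and 4.52 CPM without, and Slamf7 186 and 133 CPM. Apod and Gng11, high in macaque, were at 0.111 and 0.223 CPM with and 0.263 and 0.526 CPM without Rag in mouse, and Rassf4 was 30.5 CPM with and 29.99 CPM without.

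**Figure D5:**
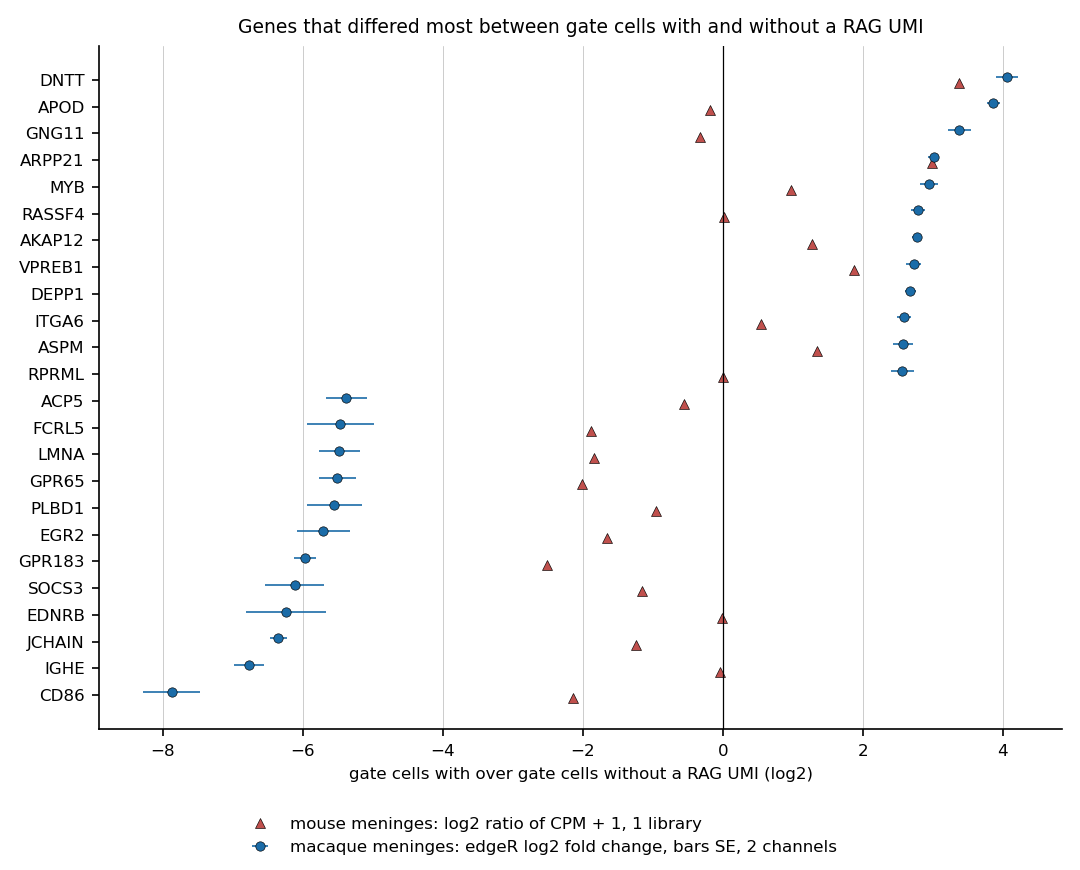
Difference between B-lineage gate cells with and without a RAG UMI (log2) for the 12 largest rises and 12 largest falls of the macaque fit; blue circles are edgeR fold changes with SE bars over 2 macaque channels, and red triangles the mouse ratio of CPM + 1 from 1 library. DNTT, ARPP21 and VPREB1 lie right of 0 in both species, and APOD lies right of 0 in macaque but not in mouse; fitted macaque values of the falls with 0 to 2 UMIs in the RAG-positive cells, such as CD86 and EDNRB, depend on the prior count and are no bound.

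Of 17 end joining and recombination genes, the machinery that seals the breaks the recombinase makes, 8 were higher and 2 lower in cells with RAG (median log2 0.23, beside -0.03 over all genes tested, of which 17.3% were called higher and 20.8% lower). Apart from DNTT the highest were HMGB2, a DNA-bending cofactor of the RAG complex, at 1837 and 1315 CPM with and 498 and 422 CPM without RAG, and POLM, a polymerase known from light chain joints in mouse, at 87.0 and 84.3 against 24.6 and 26.6 CPM. LIG4, the ligase of the pathway, was 38.5 and 41.0 CPM with RAG, against 14.3 and 20.3. The break-response kinase gene ATM fell, to 36.6 and 25.1 CPM with RAG against 79.3 and 73.4 without (log2 -1.56 ± 0.18, edgeR adjusted p = 4.9e-12), and so did PAXX. Without MS4A1-positive cells 3 of the 17 were called, a share near the 16.8% of all genes and so no result about the list: DNTT and POLM higher (POLM 0.99 ± 0.19, edgeR adjusted p = 0.0022) and ATM lower (-1.13 ± 0.25, edgeR adjusted p = 0.0063). In mouse Polm was 118 CPM with Rag and 62.95 without, and Atm 16.6 and 21.3 CPM.

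Of 26 transcription factors described at the RAG locus, 24 were tested, with 13 higher and 5 lower (median log2 0.66), beside 17.3% higher and 20.8% lower of all genes. TCF3, which encodes the E-box factors that open B-lineage genes, was 477 and 464 CPM with RAG, against 122 and 132 (log2 1.63 ± 0.09, edgeR adjusted p = 1.6e-30). FOXO1, an activator of the Rag genes in mouse B cells, was 167 and 197 CPM with RAG, against 72.4 and 74.1. LEF1, SOX4, BACH2 and ERG also rose, by 2.35, 2.12, 1.96 and 3.83, while IRF8 fell to 23.7 and 17.1 CPM with RAG, against 175 and 189 CPM without, and ETS1 fell by 1.22. EBF1 and PAX5 did not pass (0.57 ± 0.26 and 0.08 ± 0.15). Without MS4A1-positive cells 11 were higher, among them TCF3 (0.60), FOXO1 (0.73) and MYB (0.99), and 1, IRF8, was lower, beside 6.43% higher and 10.4% lower of all genes. The list of surrogate light chain and pre-B receptor genes had 8 of 10 tested higher and 2 lower, and without MS4A1-positive cells 6 higher, 1 lower and 3 that did not pass. Among the 8 were VPREB3 (735 and 890 against 199 and 190 CPM) and the kinase gene SYK (427 and 402 against 183 and 172). SOCS3, an inhibitor of cytokine signalling, was among those that fell.

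All 16 tested genes of mature and peripheral B cells fell by the test (median log2 -2.36), where 20.8% of all genes were called lower. Without MS4A1-positive cells 6 of 13 tested were lower, 1 (MAMU-DRA) was higher and 6 did not pass, beside 10.4% lower and 6.43% higher of all genes. The smallest call was CD69, at -0.31, whose CPM overlapped (783 and 708 with RAG, against 725 and 817), and the largest was MS4A1, at -5.13. The complement receptor gene CR2 was 7.91 and 6.84 CPM with RAG, against 156 and 161 without. Of 23 tested cell cycle genes 21 rose, beside 17.3% of all genes, and CDKN1A, an inhibitor of division, fell by 2.59. Once MS4A1-positive cells were removed, 2 were higher (TOP2A, CCNB1) and 6 lower (PCNA, MCM4, TYMS, RRM2, CCNE2, CDKN1A), beside 6.43% higher and 10.4% lower of all genes. The higher count is near the share of all genes and so no result about the list. MKI67 itself differed by 0.03 ± 0.09. The replication genes among these, PCNA, MCM4, TYMS and RRM2, had log2 differences of -0.48 to -0.69, carried mostly by channel 1: PCNA was 165 and 236 CPM with RAG, against 245 and 241 CPM without. The cyclin gene CCNB1 rose by 0.98. In the mouse gate without Ms4a1, Pcna was 270 CPM with Rag and 437 CPM without, Rrm2 216 and 323, and Ccnb1 117 and 78.5 CPM.

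Across clusters, the genes whose level ran most like the summed RAG level were found by Pearson correlation of log2(CPM + 1), a description over clusters that share libraries and depth. Over 17 macaque clusters of meningeal cells the closest with a gene name were P4HA2 (r = 0.956), VASN, ADGRL2, ARHGEF25, MYB (r = 0.918), MSANTD3-TMEFF1 and TIMP3, among 10935 genes. VASN (15.7 CPM) and TIMP3 (104 CPM) were highest in cluster 13, which was led by genes of fibroblast-type cells together with DNTT. The other macaque genes named were highest in cluster 7 or 15. The part of fibroblast-type cells in these correlations was not tested. Over 21 mouse clusters they were Tmem132e (r = 0.974), Smtnl2, Fam13a, Xrcc6 (r = 0.965), Gpam, Steap4, Cacna2d1 and Traf6 (r = 0.956), among 13357 genes. AKAP12, LHPP, SMARCA4 and TOP2B were within the highest 100 in both species. Xrcc6 encodes a subunit of the Ku end-binding complex, and Traf6 is the neighbour of Rag1 on the chromosome.

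In macaque TRAF6 was 38.5 and 30.8 CPM with RAG and 12.6 and 12.6 CPM without (log2 1.20 ± 0.26, edgeR adjusted p = 5.7e-05), and PRR5L, the next gene, was 65.2 and 67.2 CPM with and 8.05 and 5.50 CPM without (3.03 ± 0.24, edgeR adjusted p = 3.3e-20). IFTAP, on the side of RAG2, was 4.94 and 5.70 CPM with and 1.52 and 0.562 CPM without (2.06 ± 0.70, edgeR adjusted p = 0.013). COMMD9, next after PRR5L, was 39.5 and 45.6 CPM with and 33.9 and 33.3 CPM without, and did not pass (0.07 ± 0.20, edgeR adjusted p = 0.81). Without MS4A1-positive cells PRR5L kept its call (1.03 ± 0.22, edgeR adjusted p = 0.0051) and TRAF6 did not (0.68 ± 0.30, edgeR adjusted p = 0.14). In mouse Traf6 was 67.4 CPM with Rag and 30.7 CPM without, Commd9 35.9 and 23.8, and Prr5l 0.735 and 0.287 CPM, all within the gate. Outside the gate mouse Prr5l was 6.80 CPM.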

How the data were processed

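The deposited values are raw UMI counts, made by the authors with Cell Ranger, as the submitters' processing notes say. These give mm10 for every library; no macaque build is named there. Barcodes with at least 300 genes and at most 10% mitochondrial UMIs passed. Scrublet removed 173 mouse cells and 39 cells of each meningeal channel. It marked 0 spleen cells and was taken not to have worked there. The gate required at least 2 UMIs of 7 B-lineage genes, more than those of 17 T, NK and myeloid genes. Gate cells were grouped by raw UMIs, and each cell was thinned without replacement to 1000 UMIs for shares.

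UMI counts were summed per channel, and per channel and bin, and tested with edgeR 4.0.16 (R 4.3.3) by its quasi-likelihood test, after trimmed-mean scaling and filterByExpr, with Benjamini-Hochberg adjusted p over every gene that passed and a threshold of 0.05. The tissue comparison had no block, and the comparisons of bins and of RAG state had the channel as a block. Both members passed the filter in each fit. The tests were checked on simulated counts. Clusters (scanpy 1.11.5, 2000 variable genes, 30 components, 15 neighbours, Leiden resolution 1) were built without RAG1 and RAG2 and named from marker lists at a mean score of at least 0.3, a threshold set after the data were seen. Differences between mouse groups are ratios of CPM. The members, lists and rules were chosen with earlier results of these data known. The genes named by size are, per direction, the 12 with the greatest fold among called genes with mean log2 CPM of at least 5, the same direction in both channels and a symbol; the 8 genes most like RAG per species and list members are named besides. Alternatives were DESeq2 1.42.0, its size factors, no filter, other gates, bins and cell filters, doublets kept, thinned sums, and each channel left out. List members without a value, such as CD79A and IGLL1 in macaque, were not analysed here. No label says that same-numbered channels of the tissues belong together, and their deviations were only weakly related (r = -0.12 over 12441 genes). Channel numbers were therefore not taken to pair them.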

Additional observations from a re-analysis of the deposited data

Results flagged for a closer look

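RAG1 moved in opposite directions with VPREB1 in the 2 species. Gate cells with VPREB1 had more RAG1 than gate cells without it in both macaque channels, by 2.13 and 2.50 on the log2 scale, and less in the mouse library, by -0.27. The difference between species was not tested, since mouse has 1 library. A Vpreb1 UMI was present in 10.6% of mouse NK-like and T-like cells but in 0.224 and 0% of macaque ones, and in gate cells without MS4A1 the macaque channels gave -0.23 and 0.12; the part of either in the difference was not tested.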

How the results depend on the processing

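Over 182 recomputed values, 149 kept their direction and call or stayed within the spread. These include 12 values of RAG1 and 12 of RAG2 between the tissues, which had to differ and so say nothing about stability. Thinning ended the RAG1 call by DNTT (0.29 with bins thinned too, 0.019 with sums alone) and the RAG2 call by MKI67 (0.51 and 0.044). RAG2 by DNTT passed with DESeq2 size factors (1.49), without the replicate block (1.41), over all kept cells (2.19), with a gate of 1 UMI (1.49) and at 2 or more DNTT UMIs (1.503). The calls by MKI67 were lost with DESeq2 (-0.89 and 1.08) and, for RAG1, over all kept cells (-0.45). Among gate cells without MS4A1, RAG1 by DNTT (0.34) and RAG2 by VPREB1 (0.18) lost their calls, and RAG2 by DNTT (-0.27), RAG1 by VPREB1 (-0.31) and RAG2 by MKI67 (-0.58) turned sign. The causes were not tested. Genes called between tissues numbered 7235, and 4274 after thinning; between RAG states 3882, and 1590 with DESeq2, 1771 thinned and 1305 without MS4A1. With channel number as a replicate block 7110 genes were called between tissues, and 7685 with crossed pairing; without the block 3739 between RAG states. The block changed no other call. Shares of meningeal cells with RAG1, RAG2 and both (2.45, 0.965 and 0.363%) were 1.24, 0.425 and 0.0365% at 500 UMIs, 3.22, 1.60 and 0.735% at 2000, 4.21, 2.51 and 1.27% unthinned, and 5.02, 1.99 and 0.729% in the gate. The DNTT comparison rests on 18 and 30 cells with DNTT.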
